A study of Mus musculus with 6 samples.

Results

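The p53 pathway and its apoptotic machinery were read as a group of 37 genes in neonatal mouse ventricular cardiomyocytes in which Gdf11, the gene of a circulating TGF-beta superfamily factor, was lowered. The members were chosen by gene symbol from knowledge of the pathway, with earlier results of these data known. All 37 were found among the 54532 genes of the deposited expression table. They comprise Trp53 with its negative regulators, genes grouped here as p53 targets, the BCL2 family, initiator caspases and inhibitors of apoptosis.

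The cells were primary cardiomyocytes of C57BL/6J mice aged 1 day, named C57BL/6 in the sample labels. In 3 libraries they carried a short hairpin RNA against Gdf11 (shGDF11), and in 3 libraries a control hairpin that the labels call sh-nc or sh-Vector. Both hairpins were given at a multiplicity of infection of 200, and RNA was taken after 48 h, so the controls had also been through delivery of a hairpin, and no group without one was analysed here. The labels number the libraries 1 to 3 in each group and leave unsaid whether these stand for separate cultures or for different hairpin sequences. The p-values therefore measure only the spread between these libraries, which may be technical. Whole-culture RNA was sequenced, in which fewer cells of a type and less RNA per cell cannot be told apart.

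p53 is a transcription factor that is held low in unstressed cells by the ubiquitin ligase MDM2 and its partner MDM4. Once stabilised by DNA damage or other stress, it binds a paired sequence element and induces genes of growth arrest, DNA repair and cell death. Several of its death targets belong to the BCL2 family, in which BH3-only proteins and the pore formers BAX and BAK are opposed by BCL2, BCL-XL and MCL1. Loss of the mitochondrial barrier lets cytochrome c assemble APAF1 and caspase 9 into the apoptosome, and XIAP and the cIAP proteins restrain the caspases.

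The element that p53 binds was read in RefSeq promoter windows of the members (build GRCm38.p6, 250 bases before to 50 bases after each annotated start). It is shown because the 2 closest matches belong to Ccng1 and Cdkn1a, whose levels moved in opposite directions. This choice was made with the values seen, and both genes are among the members grouped as p53 targets. The p53 consensus site was searched as 2 abutting repeats with no spacer, 20 bases in all. The 4 core bases of the pattern CNNGNNNNNNCNNG were required, and at most 3 mismatches were allowed at the other positions. The site is its own reverse complement, so 1 scan covers both strands. Windows were found for 32 members, 46 in all, and none for Zmat3, Rrm2b, Trp53inp1, Perp and Pmaip1. At most 1 mismatch was seen in 22 of 32851 windows of all genes (0.067%), and 2 of these belong to members, Ccng1 and Cdkn1a. At most 3 mismatches were seen in 453 windows of all genes (1.38%), and in 7 windows of 6 members, which adds Bbc3, Aen, Sesn1 and Trp53. A match describes the letters in these windows and does not show that p53 binds there. The 250 bases before the annotated start are given for the 2 closest matches, with the site in capitals.
Ccng1 (chr11:40755287-40755536, minus strand): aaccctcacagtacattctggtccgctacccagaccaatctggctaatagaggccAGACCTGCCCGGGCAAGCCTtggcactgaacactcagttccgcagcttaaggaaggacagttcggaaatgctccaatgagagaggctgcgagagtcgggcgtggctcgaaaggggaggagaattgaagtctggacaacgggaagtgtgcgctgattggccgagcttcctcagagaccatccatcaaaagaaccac
Cdkn1a (chr17:29090729-29090978, plus strand): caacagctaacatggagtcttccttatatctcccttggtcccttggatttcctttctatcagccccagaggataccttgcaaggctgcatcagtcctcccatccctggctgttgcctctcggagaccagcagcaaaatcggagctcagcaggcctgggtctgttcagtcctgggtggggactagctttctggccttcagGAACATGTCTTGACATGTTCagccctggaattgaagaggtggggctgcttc

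The 20-base sites of the 6 members are set side by side to show how they differ from the consensus, with bases that match it in capitals and mismatches in lower case. In Aen the same site falls in 2 windows. The Cdkn1a site begins 51 bases before the more upstream of its listed starts, and that start lies 2790 bases from the other.
Ccng1 (chr11:40755462-40755481, minus strand): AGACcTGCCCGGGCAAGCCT
Cdkn1a (chr17:29090928-29090947, plus strand): GAACATGTCTtGACATGTTC
Bbc3 (chr7:16309486-16309505, plus strand): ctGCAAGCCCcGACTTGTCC
Sesn1 (chr10:41887266-41887285, plus strand): AAGCTTGTTTttGCTgGCCT
Aen (chr7:78895937-78895956, plus strand): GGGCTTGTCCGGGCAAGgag
Trp53 (chr11:69580284-69580303, plus strand): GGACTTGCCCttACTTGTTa

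The libraries held 15267083 to 16152910 reads in listed genes. Values are FPKM (fragments scaled to gene length and library size). They allow only a rough comparison of levels between genes, since a single length per gene is used whichever transcripts are present. For 1 kb of transcript, a floor of 3 reads equals 0.18 to 0.191 FPKM, which covers counting error only. Gdf11 itself, on chromosome 10 (128882295 to 128891718, minus strand, GRCm38), had 0.614, 0.601 and 0.778 FPKM in the shGDF11 libraries, against 2.76, 2.30 and 2.31 FPKM in the control libraries. Its log2 fold change was -1.34 ± 0.125 (SE, n = 3 per group, limma adjusted p = 0.00079), in the direction the labels give. Because 0.5 FPKM was added before the log, this value understates the fall of a gene at so low a level. All 10 cardiomyocyte markers were present, with a summed level of 7225 to 7518 FPKM in shGDF11 and 8427 to 8685 FPKM in control libraries, and 3 of them rose and 3 fell. The 8 endothelial markers summed to 46.7 to 49.8 FPKM in shGDF11 and 68.1 to 73.0 FPKM in control libraries, and 6 of them fell and 0 rose. Smooth muscle and pericyte markers summed to 450.7 to 457.4 FPKM in shGDF11 and 1060.2 to 1134 FPKM in control libraries, with 4 falls and 0 rises. The median log2 fold change of these 8 markers was -0.26, and the 4 not called ran from -0.02 to 0.29. In control libraries Cnn1, Smtn, Cspg4, Rgs5 and Myh11 had means of 27.4, 17.1, 11.4, 5.38 and 2.44 FPKM. Most of the sum therefore came from the other markers of this list. Macrophage and leukocyte markers summed to 39.7 to 44.8 FPKM in shGDF11 and 51.5 to 59.2 FPKM in control libraries, with 2 falls and 0 rises. Fibroblast markers summed to 327.7 to 339.6 FPKM in shGDF11 and 257.2 to 310.4 FPKM in control libraries, with 2 rises and 0 falls. The 5 epicardial markers summed to 14.8 to 17.5 FPKM in shGDF11 and 17.3 to 20.6 FPKM in control libraries, with 1 rise and 1 fall. The 6 erythroid markers summed to 0.421 to 0.878 FPKM in shGDF11 and 0.125 to 0.452 FPKM in control libraries. Cd3e and 5 erythroid markers were at 0 in some libraries, and no marker was at 0 in all 6. Single genes weigh heavily in some of these sums. Actc1 had a mean of 2766 FPKM in shGDF11 and 4187 FPKM in control libraries. The median log2 fold change of the 10 cardiomyocyte markers was 0.16. The part that these differences in markers play in the results on the 37 genes was not tested. Reads of ribosomal RNA genes took 0.470% to 0.502% in shGDF11 and 0.298% to 0.319% in control libraries, and their part was not tested either.

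All 37 genes passed the filter of a mean of 0.5 FPKM and were tested within the fit over 15418 genes. At a limma adjusted p under 0.05, 14 of the 37 were called, 6 higher and 8 lower in shGDF11 cells. The same rule called 27.6% of all genes tested, with 14.4% higher and 13.1% lower. The share of 37.8% among the 37 genes is thus somewhat above that background, and was not tested as a set. With the filter raised to a mean of 5 FPKM, which 31 of the 37 genes passed, 2925 of 7798 genes were called. That is a larger share than 27.6% and is close to the 37.8% of the 37 genes. The part that expression level plays in the share of the 37 genes was not tested. The median log2 fold change of the 37 genes was -0.03, against 0.01 over all genes tested. For 24 of the 37 genes (64.9%) the shGDF11 and control values were fully separate, against 45.8% of all genes tested. The genes did not move as a block. Ccng1, Sesn1, Casp9, Bcl2, Zmat3 and Gadd45a rose, while Bbc3, Cdkn1a, Trp53inp1, Phlda3, Mcl1, Gadd45g, Trp53 and Plk2 fell. Called in every alternative in which they were tested, including the omission of each library, were Ccng1, Sesn1, Casp9, Cdkn1a, Trp53inp1 and Phlda3. The counts depended on single libraries. The 8 falls were 3 without any 1 shGDF11 library, 4 without control replicate 2 and 5 without control replicate 3, and the 6 rises were 3 without shGDF11 replicate 2. On TPM values, 7 members rose and 4 fell. That setting also let 19679 genes pass the filter, raised the median log2 fold change of all genes by 0.088, and gave 66.3% higher genes among all called, against 52.4% in the main test.

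**Figure D1:**
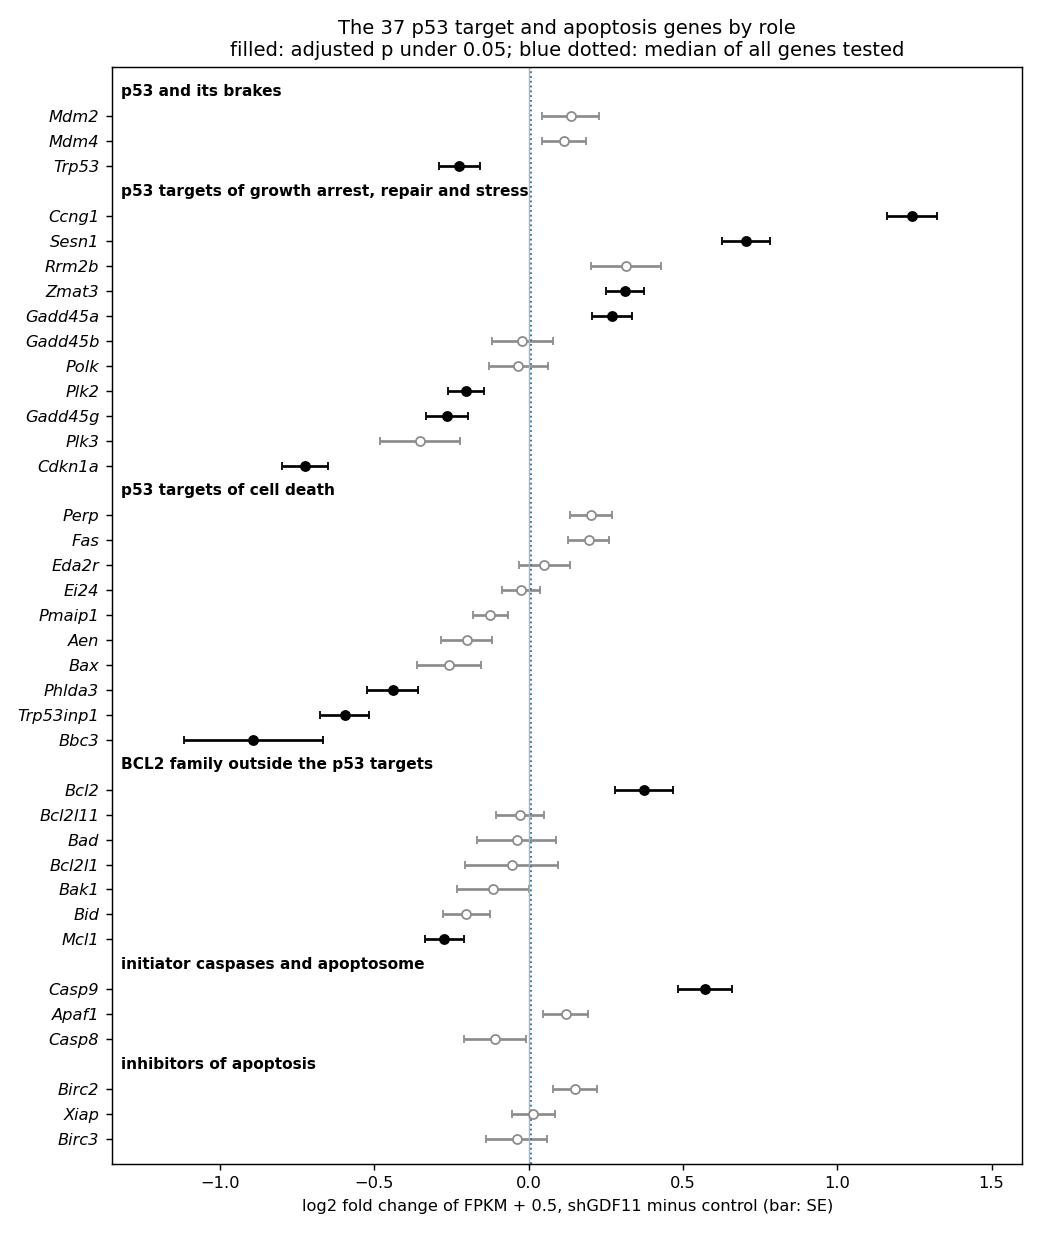
Log2 fold change (x axis, FPKM + 0.5, shGDF11 minus control) of each of the 37 genes (y axis), grouped by role, with the SE as bars. Filled points passed an adjusted p of 0.05. The genes grouped as p53 targets spread from -0.89 for Bbc3 to 1.24 for Ccng1, while the inhibitors of apoptosis lie between -0.04 and 0.15.

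Trp53, which encodes p53, was slightly lower. It lies on chromosome 11 (69580359 to 69591873, plus strand). It had 20.04, 17.8 and 20.1 FPKM in the shGDF11 libraries, against 22.5, 22.4 and 22.9 FPKM in the control libraries, and the groups did not overlap. The log2 fold change was -0.22 ± 0.0662 (SE, limma adjusted p = 0.0438). This call was near the threshold. It was lost when any 1 of the 6 libraries was left out (adjusted p = 0.0597 to 0.147), and the adjusted p over all alternatives ran from 0.0300 to 0.301. On TPM the log2 fold change was -0.14. A stretch of 353 bases of the Trp53 transcript is 97.7% identical to the pseudogene Trp53-ps, so some of its reads may have been shared.

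Mdm2 and Mdm4, the members whose proteins restrain p53, were not called. Mdm2, a ubiquitin ligase and itself a p53 target, had 36.4, 36.1 and 33.7 FPKM in shGDF11, against 28.8, 31.6 and 36.4 FPKM in control libraries. The values overlapped, with control replicate 3 level with the highest shGDF11 library. Its log2 fold change was 0.14 ± 0.0918 (SE, limma adjusted p = 0.31). Mdm4, the partner of MDM2, had a log2 fold change of 0.12 ± 0.0711 (SE, limma adjusted p = 0.27).

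Among 11 genes grouped here as p53 targets of growth arrest, repair and stress, 4 rose and 3 fell. That is 63.6% called, against 27.6% of all genes tested and 2925 of 7798 genes at the 5 FPKM filter. Of these 7 calls, only those of Ccng1, Sesn1 and Cdkn1a held in every alternative. Ccng1, the gene of cyclin G1, which brings the phosphatase PP2A to MDM2, showed the largest rise. It lies on chromosome 11 (40748552 to 40755311, minus strand). It had 398, 397 and 382 FPKM in the shGDF11 libraries, against 148, 171 and 179 FPKM in the control libraries. Every shGDF11 library lay above every control library by a wide margin, with 8182 to 22962 reads behind the values. Its mean was 2.36 times that of control, with a log2 fold change of 1.24 ± 0.0815 (SE, limma adjusted p = 0.00029). By fold change it ranked 146 from the top among 15418 genes. In shGDF11 cells it was the most abundant of the 37 genes, at 392.5 ± 8.94 FPKM (SD, n = 3), whereas in control cells Perp was, at 191.9 ± 7.83 FPKM (SD, n = 3).

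Sesn1, which encodes sestrin 1, an inhibitor of mTORC1 signalling, moved the same way. It had 18.95, 18.7 and 16.8 FPKM in shGDF11, against 10.8, 11.8 and 10.3 FPKM in control libraries. The groups lay well apart, with a log2 fold change of 0.70 ± 0.0782 (SE, limma adjusted p = 0.0013). Zmat3, an RNA-binding zinc finger protein, had 6.30, 6.33 and 6.28 FPKM in shGDF11, against 4.82, 5.10 and 5.02 FPKM in control libraries. Its log2 fold change was 0.31 ± 0.0622 (SE, limma adjusted p = 0.0117). Without shGDF11 replicate 2 the adjusted p was 0.0526, the highest of 17 alternatives, whose lowest was 0.00285.

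Cdkn1a, which encodes the cyclin-dependent kinase inhibitor p21 and is the best known arrest gene of p53, moved in the opposite direction. It lies on chromosome 17 (29090976 to 29100727, plus strand). It had 85.8, 78.6 and 87.6 FPKM in the shGDF11 libraries, against 151, 133 and 134 FPKM in the control libraries. All shGDF11 libraries were below all control libraries, and the mean was 60.3% of control. The log2 fold change was -0.72 ± 0.0749 (SE, limma adjusted p = 0.0011). An antisense gene, AC167363.2, covers 7.68% of its exon bases, and without strand its reads cannot be told apart from those of Cdkn1a. The ratio of Ccng1 to Cdkn1a, both at the FPKM scale, was 4.64, 5.06 and 4.36 in shGDF11 libraries and 0.983, 1.29 and 1.33 in control libraries. Control libraries thus held the 2 transcripts at similar levels, and every shGDF11 library had a clear excess of Ccng1. This ratio was formed after the values were seen and was not tested.

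The GADD45 genes, which encode small stress sensors that bind PCNA and the kinase MTK1, gave 1 rise, 1 fall and 1 gene that was not called. Gadd45a had 9.21, 10.2 and 9.84 FPKM in shGDF11, against 8.08, 7.82 and 8.10 FPKM in control libraries (log2 fold change 0.27 ± 0.0648 SE, limma adjusted p = 0.0216). The call was lost without shGDF11 replicate 2, shGDF11 replicate 3 or control replicate 2 (adjusted p = 0.0682 to 0.0913), within a range over all alternatives of 0.00978 to 0.0913. An antisense gene covers 19.1% of its exon bases. Gadd45g had 25.1, 22.02 and 24.9 FPKM in shGDF11, against 29.4, 28.6 and 28.7 FPKM in control libraries (log2 fold change -0.26 ± 0.0674 SE, limma adjusted p = 0.0271). That call was lost without any 1 library other than control replicate 1 (adjusted p = 0.0530 to 0.0915), and the adjusted p ran from 0.0194 to 0.331 over all alternatives. With the GC and length trends removed its log2 fold change was -0.099. Gadd45b had 12.5, 9.65 and 10.7 FPKM in shGDF11, against 11.3, 11.4 and 10.6 FPKM in control libraries, and was not called (limma adjusted p = 0.90).

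Plk2, a polo-like kinase, had 27.7, 27.8 and 26.1 FPKM in shGDF11, against 31.4, 30.1 and 32.6 FPKM in control libraries. The fall was small (log2 fold change -0.20 ± 0.0584 SE, limma adjusted p = 0.0411) and was lost without any 1 of the 6 libraries (adjusted p = 0.0532 to 0.144, with 0.01004 to 0.335 over all alternatives). On TPM the log2 fold change of Plk2 was -0.11. Its relative Plk3 was not called, with a log2 fold change of -0.35 ± 0.129 from 61 to 104 reads per library (SE, limma adjusted p = 0.0849). Rrm2b, the p53-inducible subunit of ribonucleotide reductase, had a log2 fold change of 0.32 ± 0.114 and passed only on recovered reads with limma voom (adjusted p = 0.0246, against 0.0823 in the main test and 0.217 at the highest). Polk, a translesion DNA polymerase, was near no difference (log2 fold change -0.03 ± 0.0959 SE, limma adjusted p = 0.83).

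**Figure D2:**
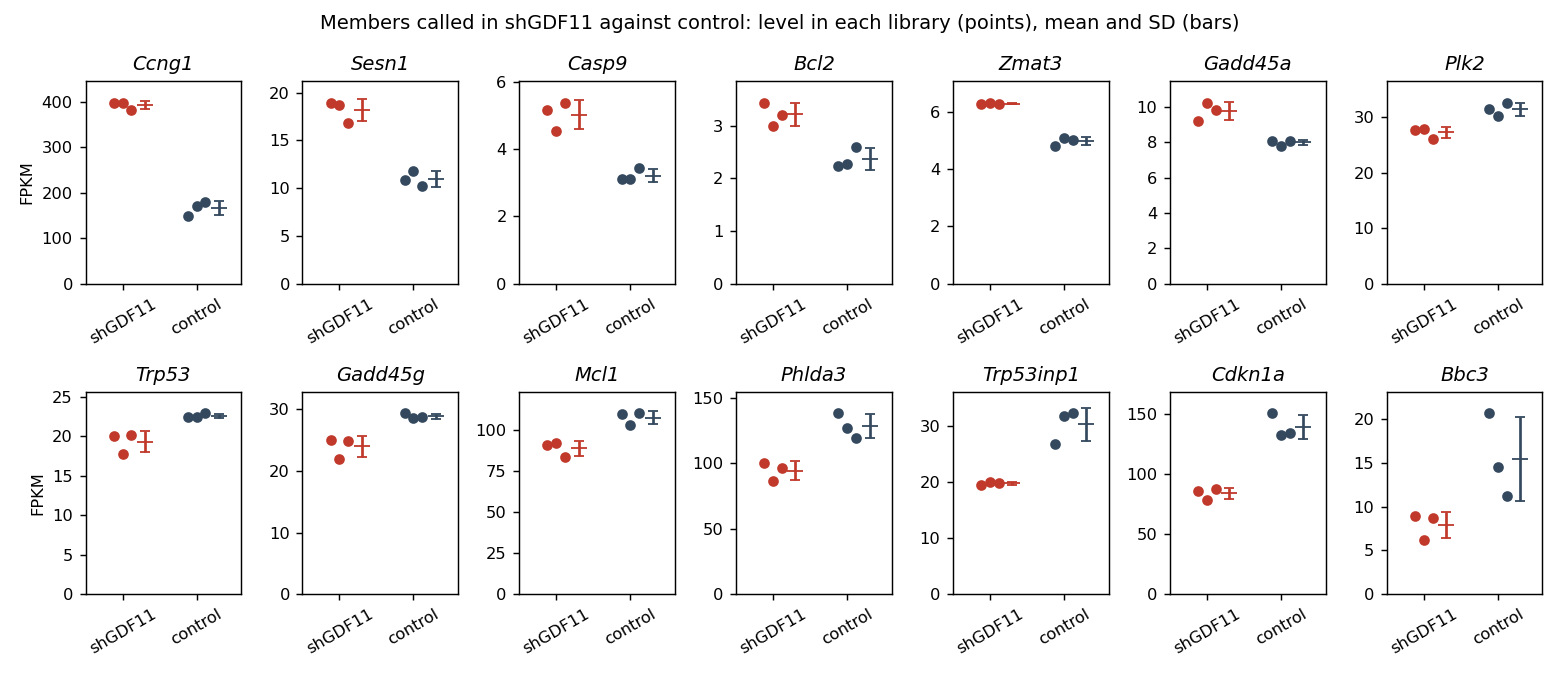
FPKM (y axis, from 0) of the 14 called genes in each shGDF11 and control library (points), with the mean and SD beside them, ordered from the largest rise to the largest fall. In each panel the 3 shGDF11 values do not overlap the 3 control values, which for Bbc3 run from 6.24 to 8.91 FPKM in shGDF11 and from 11.3 to 20.7 FPKM in control libraries.

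Of 10 p53-induced genes with roles in cell death, 3 fell and 0 rose, a share near the 27.6% called among all genes tested. Bbc3 encodes PUMA, a BH3-only protein that frees BAX and BAK from the survival proteins. It lies on chromosome 7 (16308393 to 16318205, plus strand). It had 8.91, 6.24 and 8.73 FPKM in the shGDF11 libraries, against 20.7, 14.5 and 11.3 FPKM in the control libraries. The groups did not overlap, at 7.96 ± 1.49 FPKM in shGDF11 and 15.5 ± 4.78 FPKM in control libraries (SD, n = 3 each), with the wider scatter in control. The log2 fold change was -0.89 ± 0.226 (SE, limma adjusted p = 0.0265), the largest fall of the 37 genes. Without any 1 shGDF11 library or control replicate 2 the adjusted p was 0.0539 to 0.0851, and over all alternatives it ran from 0.00289 to 0.0851. With the GC and length trends removed the log2 fold change was -0.58, and the gene stayed called.

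Trp53inp1, a stress-induced nuclear protein that assists p53, had 19.6, 20.1 and 19.9 FPKM in shGDF11, against 26.9, 31.9 and 32.3 FPKM in control libraries. Its shGDF11 values were nearly equal, and its log2 fold change was -0.60 ± 0.0801 (SE, limma adjusted p = 0.0025). Phlda3, which competes with AKT for membrane lipids, had 101, 86.3 and 96.6 FPKM in shGDF11, against 138, 127 and 120 FPKM in control libraries. The log2 fold change of Phlda3 was -0.44 ± 0.0828 (SE, limma adjusted p = 0.0093). It was -0.20 once trends with GC content and gene length were removed, where it stayed called.

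Bax, the pore-forming effector, did not pass the test. It had 68.7, 67.6 and 70.5 FPKM in shGDF11, against 96.8, 72.9 and 79.4 FPKM in control libraries. The groups did not overlap, but control replicate 1 stood well above the other control libraries. The log2 fold change was -0.26 ± 0.103 (SE, limma adjusted p = 0.11), and 0.01 with the GC and length trends removed (adjusted p = 0.911, the highest over the alternatives, whose lowest was 0.0489). On the same strand, Gm45808 covers 12.2% of the exon bases of Bax. None of the remaining death genes induced by p53 was called by limma, and their log2 fold changes lay within -0.20 and 0.20. Lower in value were the exonuclease gene Aen (-0.20), Pmaip1, which encodes the BH3-only protein NOXA (-0.12), and Ei24, which encodes a protein of the endoplasmic reticulum (-0.02). Higher in value were Perp, a membrane protein of desmosomes (0.20), the death receptor gene Fas (0.19) and Eda2r, a receptor of ectodysplasin A2 (0.05). The limma adjusted p of Perp was 0.0636 and that of Fas 0.0733, so both lay near the threshold, and the adjusted p of Perp ran from 0.0221 to 0.198 over its alternatives.

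Of the 7 other genes of the BCL2 family, 1 rose and 1 fell, and both encode survival proteins. Their share of 28.6% called was near the 27.6% of all genes tested. Bcl2 had 3.44, 3.00 and 3.22 FPKM in the shGDF11 libraries, against 2.24, 2.27 and 2.60 FPKM in the control libraries. The groups did not overlap (log2 fold change 0.37 ± 0.0932 SE, limma adjusted p = 0.0250). The call was lost without any 1 shGDF11 library or control replicate 2 (adjusted p = 0.0541 to 0.0881, with 0.00511 to 0.0881 over all alternatives). A gene on the opposite strand covers 6.09% of its exon bases. Mcl1, the short-lived survival protein that the heart requires, had 90.9, 92.1 and 83.6 FPKM in shGDF11, against 110, 103 and 110 FPKM in control libraries. Its log2 fold change was -0.27 ± 0.0630 (SE, limma adjusted p = 0.0191). This call was lost without any 1 shGDF11 library (adjusted p = 0.0527 to 0.0763), within a range over all alternatives of 0.00566 to 0.116. Bcl2l1, which encodes BCL-XL, had 13.0, 12.2 and 13.2 FPKM in shGDF11, against 16.8, 13.2 and 10.7 FPKM in control libraries. The shGDF11 values lay inside the wide range of the controls, and the gene was not called (limma adjusted p = 0.82).

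In both groups the order of the survival genes by level was Mcl1, then Bcl2l1, then Bcl2, and neighbours in this order did not overlap. Mcl1 was at 27.7 ± 2.60 times the level of Bcl2 in shGDF11 and at 45.5 ± 3.37 times in control libraries (SD, n = 3 each). Bax was at 19.95, 22.5 and 21.9 times the level of Bcl2 in shGDF11 libraries, against 43.3, 32.1 and 30.5 times in control libraries. The Bax to Bcl2 ratio of transcripts was lower in each shGDF11 library than in each control library, and was given no test because the genes were chosen with results known.

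The BH3-only and effector genes that were grouped here outside the p53 targets were not called. Bid, which caspase 8 cleaves, had the lowest log2 fold change among them (-0.20 ± 0.0762 SE, limma adjusted p = 0.0920), with 17.7% of its exon bases opposite Bcl2l13. The pore former Bak1 had -0.11, Bad, a BH3-only protein regulated by phosphorylation, -0.04, and Bcl2l11, which encodes BIM, -0.03 as log2 fold change. Bak1 and Bad share 25.5% and 20.5% of their exon bases with genes on the opposite strand. Bax, Bak1, Bad, Bcl2l1 and Bbc3 were each highest in control replicate 1 among the control libraries, with coefficients of variation of 14.9% to 30.9% in control. Over all 37 genes, control replicate 1 was the highest control library for 12 and the lowest for 16. The median coefficient over the 37 genes was 5.02% in shGDF11 and 7.26% in control libraries, against 7.32% and 11.1% over all genes tested in the same order.

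**Figure D3:**
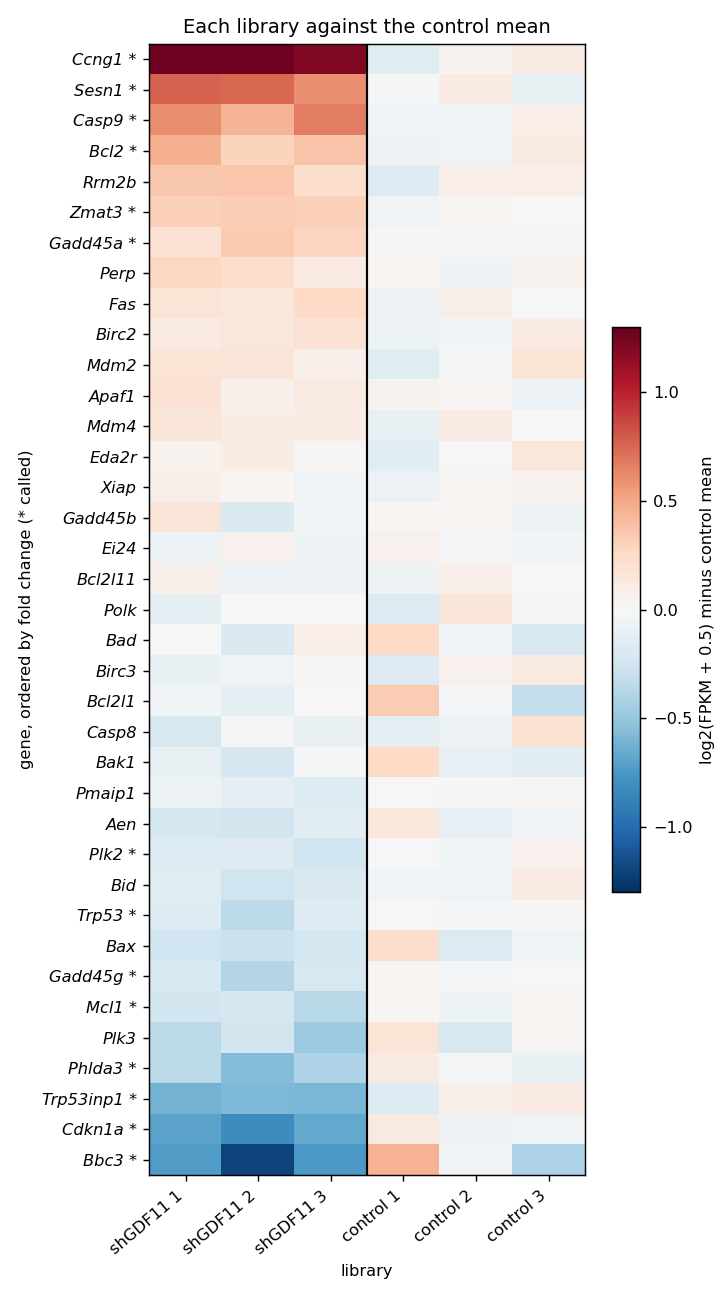
Log2(FPKM + 0.5) of each gene in each library (columns, shGDF11 first) minus the mean of the control libraries, with genes (rows) ordered by fold change and called genes starred. The top rows from Ccng1 to Gadd45a are above the control mean in all 3 shGDF11 libraries, and control replicate 1 stands out for Bbc3, Bax, Bak1, Bad and Bcl2l1.

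Casp9, the initiator caspase of the apoptosome, rose. It lies on chromosome 4 (141793612 to 141815976, plus strand). It had 5.15, 4.54 and 5.38 FPKM in the shGDF11 libraries, against 3.10, 3.10 and 3.43 FPKM in the control libraries. The mean was 1.56 times that of control, from 253 to 451 reads per library, with a log2 fold change of 0.57 ± 0.0884 (SE, limma adjusted p = 0.0044). Apaf1, its platform, had a log2 fold change of 0.12 ± 0.0735 and was not called (SE, limma adjusted p = 0.26). Casp8, the initiator caspase of death receptors, had 8.41, 9.67 and 9.19 FPKM in shGDF11, against 8.997, 9.31 and 11.3 FPKM in control libraries. Its groups overlapped and it was not called (limma adjusted p = 0.46).

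Of 3 inhibitors of apoptosis, 0 were called by limma, 0 had an unadjusted p under 0.05, and 0 were called by limma voom or any other alternative. Birc2, which encodes cIAP1, had a log2 fold change of 0.15 ± 0.0703 (SE, limma adjusted p = 0.16). Xiap, the direct inhibitor of caspases, had 0.02 ± 0.0701, and Birc3, which encodes cIAP2, -0.04 ± 0.0987 on the same scale.

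The wider pathway was read from 90 further genes in 5 lists, of which 75 passed the filter. Of these, 11 rose and 15 fell, or 34.7%, against 27.6% of all genes tested, and their median was -0.08 on the log2 scale. The 24 further p53-induced genes measured included 2 rises and 6 falls. Slc19a2, a thiamine transporter, had 9.47 ± 0.698 FPKM in shGDF11 and 22.5 ± 1.26 FPKM in control libraries (SD, n = 3 each, log2 fold change -1.21, limma adjusted p = 0.00028). Ercc5, the repair nuclease XPG, and Ptpn14, a phosphatase, fell by 0.45 and 0.52 on the log2 scale, and Sulf2, a heparan sulfate editing enzyme, rose by 0.33. The 2 rises were 1 without shGDF11 replicate 1, shGDF11 replicate 2 or control replicate 2.

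Regulators and partners of p53 gave 2 rises and 2 falls among 13 measured. Ppp1r13l, which encodes the p53 inhibitor iASPP, had 11.2 ± 0.693 FPKM in shGDF11 and 22.4 ± 3.75 FPKM in control libraries (SD, n = 3 each, log2 fold change -0.96, limma adjusted p = 0.0018). Hipk2, a kinase that phosphorylates p53, had 6.02 ± 1.02 FPKM in shGDF11 and 2.78 ± 0.415 FPKM in control libraries (SD, n = 3 each, log2 fold change 0.99, limma adjusted p = 0.0034). Trp53bp1, a DNA break protein, rose by 0.38 and Cdkn2a, which encodes p16 and p19ARF, fell by 0.70 on the log2 scale. Without shGDF11 replicate 2 the call of Cdkn2a was lost (limma adjusted p = 0.0512), which left 1 fall. The DNA damage kinase genes Atm, Atr, Chek1 and Chek2, named after their values were seen, did not pass, and ranged from -0.16 to 0.02 in log2 fold change.

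Among 11 further genes of the BCL2 family, 1 rose and 3 fell. Bnip3 and Bnip3l, mitophagy receptors and known HIF-1 targets, fell by 0.84 and 0.46 on the log2 scale, and Bcl2l13, a mitochondrial family member, by 0.32, a call that was lost without shGDF11 replicate 3. An antisense gene covers 22.3% of the exon bases of Bnip3, and Bid covers 6.91% of those of Bcl2l13. Bmf, a BH3-only gene, had 3.87 ± 0.0639 FPKM in shGDF11 and 2.78 ± 0.1503 FPKM in control libraries (SD, n = 3 each, log2 fold change 0.41, limma adjusted p = 0.0083).

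Caspases, mitochondrial death factors and further inhibitors gave 4 rises and 2 falls among 17 measured. Casp12, a caspase of the endoplasmic reticulum in rodents, had 6.22 ± 0.655 FPKM in shGDF11 and 2.51 ± 0.207 FPKM in control libraries (SD, n = 3 each, log2 fold change 1.15, limma adjusted p = 0.00062). Dffb, the nuclease that cuts DNA in apoptosis, had 3.65 ± 0.570 FPKM in shGDF11 and 8.04 ± 0.0996 FPKM in control libraries (SD, n = 3 each, log2 fold change -1.05, limma adjusted p = 0.0010). Birc5, which encodes survivin and acts in mitosis, rose by 0.49 and Casp2 by 0.51 on the log2 scale, the second lost without shGDF11 replicate 1 or 3 or control replicate 1 or 3 (limma adjusted p up to 0.0785). The 4 rises were 2 without shGDF11 replicate 1, shGDF11 replicate 3 or control replicate 3, and the 2 falls were 1 without shGDF11 replicate 2 or 3 or control replicate 1 or 2.

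Of 10 death receptor, adaptor and necroptosis genes, 2 rose and 2 fell. Ripk3 and Mlkl, the kinase and the membrane effector of necroptosis, fell by 0.73 and 0.45 on the log2 scale, and Cflar, the caspase 8 inhibitor c-FLIP, rose by 0.38 beside the death receptor gene Tnfrsf21 (0.34). The calls of Cflar and Mlkl were each lost without 2 single shGDF11 libraries, as was that of Tnfrsf21. Omitting shGDF11 replicate 1 left 0 of the 2 rises, omitting replicate 2 or 3 of that group left 1, and the 2 falls were 1 without shGDF11 replicate 1 or 2.

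**Figure D4:**
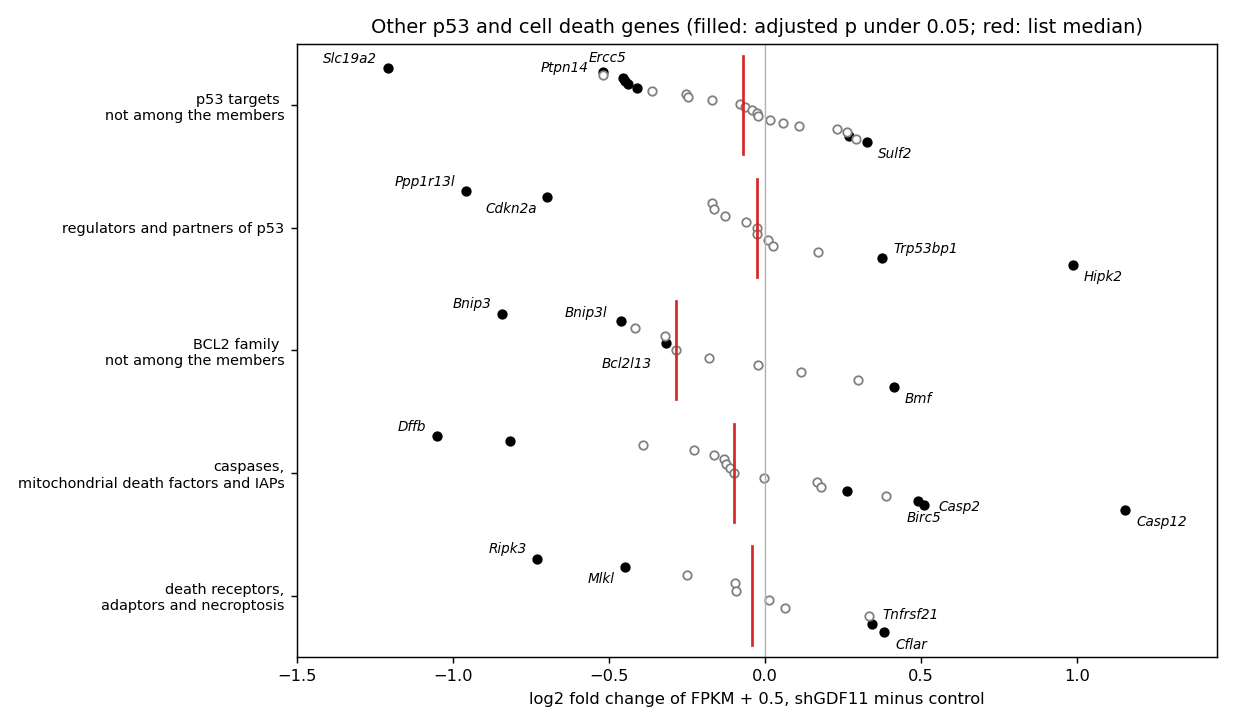
Log2 fold change (x axis, FPKM + 0.5, shGDF11 minus control) of the 75 further pathway genes that passed the filter, by list (y axis), with called genes filled, list medians in red and up to 4 called genes named per list. Slc19a2 (-1.21), Dffb (-1.05) and Casp12 (1.15) lie farthest from 0.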

How the data were processed

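RNA from 3 shGDF11 and 3 control libraries was sequenced on an Illumina instrument. The authors deposited 1 table of FPKM values per gene, and HISAT2 2.0.5, featureCounts 1.5.0-p3 and CASAVA 1.8 appear in the submitters' processing notes. The strand setting is not given in the sources used here. Groups were taken from the sample labels. FPKM values were compared with limma 3.58.1 (R 4.3.3) on log2(FPKM + 0.5) over genes whose mean FPKM was 0.5 or more, with a mean-variance trend, Benjamini-Hochberg adjustment and a threshold of 0.05. Fold changes on this scale understate the change of low genes. FPKM multiplied by gene length gave whole reads, used as depth and in a limma voom alternative. The fit was tested on simulated data. Alternatives covered the pseudocount, the filter, scaling, robust and weighted fits, leaving out each library and a replicate block, and removal of GC and length trends was added after seeing the data. Library values are given for called members and for Trp53, Mdm2, Cdkn1a, Bax, Bcl2, Bcl2l1, Mcl1, Casp8 and Casp9, with Gadd45b added after its values were seen, and other members by fold change. From each further list up to 4 called genes with the smallest p are named. The members and gene lists were chosen with earlier results of these data known. Promoter sequences are from RefSeq (GRCm38.p6).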

Additional observations from a re-analysis of the deposited data

How the results depend on the processing

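The fold change of Gdf11 kept its direction in every alternative run. For the Bax to Bcl2 ratio the alternatives could not change the direction. TPM scaling cancels in a ratio within a library, and groups that do not overlap stay apart when 1 library is left out. The ratio was not formed with GC and length trends removed, where the log2 fold change of Bax was 0.014. Of the 37 genes, 26 kept their sign in all alternatives and 19 were called in none. Leaving out 1 library each gave 1263 to 2252 higher and 1083 to 1986 lower genes, 3 to 6 members higher and 3 to 6 lower, and a member median of -0.055 to -0.013. For the further lists this range was 1 to 2 higher for p53 targets, 1 to 3 lower for regulators, 2 to 3 higher and 1 to 2 lower for caspases, and 0 to 3 higher and 1 to 2 lower for death receptors. A 5 FPKM filter gave 1474 higher genes, 1 higher and 1 lower regulator, 0 higher BCL2 genes, 2 higher caspase genes, and 1 higher and 1 lower death receptor gene. TPM gave 1242 lower genes, 4 members lower, 1 lower caspase gene, 1 lower death receptor gene and a member median of 0.055, beside 0.094 over all genes, a shift of 0.088 in the median of all genes. With no filter 5 members were lower, with 2 caspase genes higher and 1 lower, and robust eBayes gave 1 lower caspase gene. The replicate numbers did not pair the libraries (same-number correlations 0.0153, 0.0149 and -0.0521). With the replicate block 4 members were higher and 4 lower, against 6 and 8, with 1 p53 target higher and 2 caspase genes higher and 1 lower. Signs changed in some of the members that the main test did not call. As log2 fold changes, each moved by about that common shift, TPM gave Polk 0.055, Gadd45b 0.069, Ei24 0.066, Bcl2l1 0.036, Bcl2l11 0.059, Bad 0.052 and Birc3 0.044. Removing GC and length trends gave Gadd45b 0.082, Bax 0.014, Eda2r -0.0398, Bcl2l1 0.025, Bad 0.069 and Xiap -0.14. Array weights gave Bad 0.00799 and Xiap -0.0082. Leaving out 1 library gave Polk -0.12 to 0.044, Gadd45b -0.12 to 0.063, Ei24 -0.063 to 0.0017, Eda2r -0.0198 to 0.12, Bcl2l1 -0.21 to 0.11, Bcl2l11 -0.071 to 0.0035, Bak1 -0.19 to 0.013, Bad -0.14 to 0.089, Xiap -0.025 to 0.047 and Birc3 -0.12 to 0.019. Beyond what fewer genes or libraries account for by construction, the cause was not tested. With 3 libraries a group, small changes near the threshold depend on single libraries.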
